A study of Mus musculus with 10 samples.

Results

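Small nucleolar RNAs and small Cajal body RNAs were followed across 4 sorted progenitor groups of mouse bone marrow. The family was taken by name: a gene entered when its symbol began with Snora, Snord or Scarna and the array carried a probe set annotated to that symbol alone. This gave 83 genes of the 23152 measured, made up of 27 H/ACA RNAs (Snora), 48 C/D RNAs (Snord) and 8 Cajal body RNAs (Scarna). The genes were chosen by symbol and were not selected on any measured value, but the family was taken up with results of these data known, so its counts and medians are descriptions. All groups came from adult C57BL/6 mice. Lymphoid-primed multipotent progenitors (LMPPs) were lineage-negative, cKit-high, Sca-1-high, Flt3-high cells, sorted as CD127− (n = 3 arrays) and CD127+ (n = 3). Common lymphoid progenitors (CLPs) were lineage-negative, cKit-low, Sca-1-low, Flt3-high, CD127+ cells, sorted as Ly6D− (n = 2) and Ly6D+ (n = 2). CD127 is the interleukin 7 receptor α chain, and Ly6D is a surface protein used to mark CLPs inclined to the B lineage. Total RNA was extracted with Trizol, amplified, labelled with biotin and hybridised to Affymetrix arrays. The study divided LMPPs by CD127 and set them against CLPs. No label ties the replicates to separate animals or sorts, and the p-values therefore reflect the variation among these arrays alone, which may be technical.

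Small nucleolar RNAs guide chemical changes in ribosomal RNA. C/D RNAs, named for a pair of short sequence boxes, bind fibrillarin and place ribose methyl groups. H/ACA RNAs, named for a hinge box and an ACA triplet near the end, bind dyskerin and turn uridine into pseudouridine. Small Cajal body RNAs carry the same boxes, gather in the Cajal body of the nucleus and guide changes in the RNAs of the spliceosome. Most of these RNAs in vertebrates are cut from introns of a host gene, which may code for a protein or serve, as far as known, mainly as a carrier. A few, among them U8, U13 and Scarna2, are transcribed from a promoter of their own. A probe set in such a region can read the mature RNA, its precursor and unspliced host transcript, and the array values do not separate them.

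RefSeq (GRCm38.p6) holds microRNA hairpins that overlap 3 of the Cajal body RNAs. Probe sets annotated to such an RNA and a microRNA together were left out of the family. The values given for these 3 RNAs therefore come from other probe sets, and the hairpins do not show what those measure. The hairpins are printed 5′ to 3′ because Scarna13 and Scarna3b are among the RNAs that differed between groups. Scarna3a is a close copy that did not pass the test. The capitals mark the last ACA of each hairpin, the triplet that gives the H/ACA box its name. Mir3069 lies on the minus strand at chr12:105031077-105031141, all 65 bases inside Scarna13, and its ACA ends 3 bases before that gene's annotated end. Mir1843b lies on the plus strand at chr1:159340358-159340423, all 66 bases inside Scarna3a, with its ACA 4 bases before the end. Mir1843a lies on the minus strand at chr12:80391613-80391677, shares 64 of its 65 bases with Scarna3b, and has its ACA 1 base before the end.
Mir3069 (in Scarna13): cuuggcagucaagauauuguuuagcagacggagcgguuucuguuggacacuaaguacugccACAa
Mir1843b (in Scarna3a): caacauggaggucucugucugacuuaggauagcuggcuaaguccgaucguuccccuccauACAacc
Mir1843a (overlapping Scarna3b): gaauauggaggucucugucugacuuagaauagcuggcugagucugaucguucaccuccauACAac
Aligned from the first base without gaps, the hairpins of Scarna3a and Scarna3b are identical at 59 of 65 positions. The array's annotation lists Scarna3a and Scarna3b separately, and whether a probe of one also binds the other was not tested.

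Of the 83 RNAs, 79 rested on a single probe set, so no second probe set annotated to the same symbol alone could be compared. For some of them, probe sets annotated to another gene as well are given below. Snord116, a C/D RNA of the imprinted Prader-Willi cluster known mainly from brain, has 15 probe sets, but they hold 1 distinct row of values. A low-signal limit of 4.43 log2, the 95th percentile of 1419 sensory receptor genes, was exceeded by the mean of at least 1 group for 78 of the RNAs and by the mean of every group for 72. The 5 below it throughout were Scarna10, Snora35, Snora36b, Snord37 and Snord90. Arrays of a group correlated over the 83 RNAs at Pearson r of 0.947 to 0.991 (8 pairs), arrays of different LMPP groups at 0.964 to 0.985 (9 pairs) and arrays of different CLP groups at 0.948 to 0.975 (4 pairs). LMPP arrays against CLP arrays gave 0.853 to 0.929 (24 pairs), below the lowest value within a group. These correlations are across genes, which are not independent, and describe the arrays only. Il7r, Ly6d and Kit followed the sort labels. Il7r was higher in CD127+ than CD127− LMPPs by 4.77 log2 (SE 0.19), and Ly6d was higher in Ly6D+ than Ly6D− CLPs by 5.45 (SE 0.21). Kit was lower in CLPs than in CD127+ LMPPs by a log2 difference of -0.99 (SE 0.12). Ly6a, the gene of Sca-1, did not pass in limma. CLPs differed in it by -1.12 (adjusted p = 0.061) from CD127+ and 0.09 (adjusted p = 0.90) from CD127− LMPPs. Ly6d, on which LMPPs were not sorted, read 8.53 to 8.81 in CD127+ LMPPs and 5.59 and 6.17 in Ly6D− CLPs. Flt3, sorted high in all groups, read 9.73 to 10.29 on the 10 arrays.

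CLPs, taken as the equal mean of both CLP groups, were first compared with CD127+ LMPPs, the group with which they share CD127. Among the small RNAs, 12 fell and 3 rose at an adjusted p below 0.05 in limma, against 3.94% lower and 2.23% higher over all genes (6.18% in either direction). The largest falls were Scarna2, Scarna13 and Snora44, and the largest rise was Snord61. H/ACA RNAs had 5 lower and 0 higher of 27, with a median log2 difference of -0.41 against -0.001 for all genes, and 23 of the 27 differences were negative. C/D RNAs had 5 lower and 2 higher of 48 (median -0.10), and Cajal body RNAs 2 lower and 1 higher of 8 (median 0.17). The 15 calls became 8, 6 and 9 without CD127+ LMPP array 1, 2 and 3, and 9 without Ly6D− CLP array 1 or either Ly6D+ CLP array. Over all genes the 1430 calls became 608, 586 and 600 without those CD127+ LMPP arrays. They became 1034 without Ly6D− CLP array 1, and 647 and 715 without Ly6D+ CLP array 1 and 2. Against CD127− LMPPs, which share the CLP arrays with the first comparison, 12 fell and 4 rose, against 8.36% lower and 5.08% higher over all genes (13.4% in either direction). There H/ACA RNAs had 5 lower and 0 higher (median -0.42, 23 of 27 negative), C/D RNAs 5 lower and 3 higher (median -0.01) and Cajal body RNAs 2 lower and 1 higher (median 0.04), where the median of all genes was 0.02. These 16 calls became 10 without CD127− LMPP array 1, where the 3111 calls over all genes became 1763. Other settings, or either CLP group alone, gave between 5 and 27 calls against CD127+ LMPPs and between 10 and 29 against CD127− LMPPs. The calls over all genes then ran from 476 to 2423 and from 1643 to 3994.

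**Figure D1:**
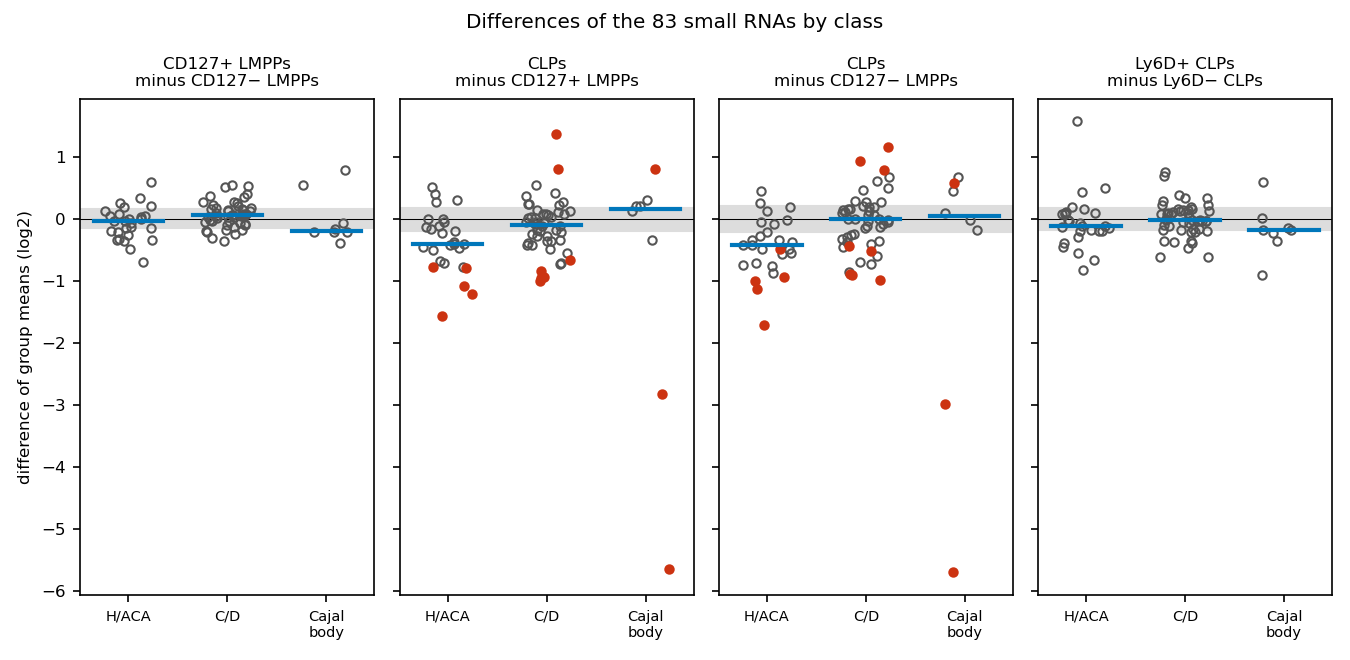
Log2 difference of group means for each of the 83 small RNAs (circles) in 4 comparisons, by class, with filled red circles for adjusted p below 0.05 in limma, a blue bar for the class median and a grey band for the interquartile range of all genes. Filled circles appear only in the comparisons of CLPs with LMPPs, where the H/ACA medians of -0.41 and -0.42 lie below the band and Scarna2 and Scarna13 lie far under all others.

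The small RNAs had a median signal of 6.65 log2 over all arrays, against 4.56 for all genes, and brighter genes were called more often. Against CD127+ LMPPs, 0.512% of the other genes below the low-signal limit and 8.28% of those between 6 and 8 log2 were lower. The shares were therefore also read against genes of like signal. Between the lower and upper quartile of the family's signal (5.56 to 8.27 log2) lay 41 small RNAs and 6987 other genes. Against CD127+ LMPPs, 17.1% of these small RNAs and 7.94% of the other genes were lower, with medians of -0.27 and -0.04. Of the 248 other genes in that range that also rest on 1 probe set, 8.47% were lower (median -0.11). Against CD127− LMPPs the lower shares were 17.1% of the small RNAs, 18.2% of the other genes and 14.1% of the genes with 1 probe set, so the count of lower calls there lies near the background of its signal range. The medians in that comparison were -0.33, -0.12 and -0.04. Over the quartile range of the H/ACA class (5.68 to 8.19), 3 of 13 H/ACA RNAs were lower in each comparison, with medians of -0.42 and -0.49, against -0.04 and -0.12 for 6468 other genes. That is 23.1% of the H/ACA RNAs in both, where 7.96% and 18.3% of those other genes were lower, as were 9.05% and 14.5% of the 221 of them with 1 probe set. The medians of those 221 genes were -0.12 and -0.04. For the C/D class the medians in its own range were -0.12 and -0.08 over 24 RNAs, against -0.04 and -0.12 for 7066 other genes. The 253 of those genes with 1 probe set had medians of -0.10 and -0.03. These are descriptions of strata of the array, with no test.

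All 4 CLP arrays lay below all 6 LMPP arrays for 14 of the 83 RNAs, against 6.96% of all genes, and above them for 4, against 4.82%. The 14 were 6 H/ACA, 6 C/D and 2 Cajal body RNAs, and the 4 were Snora7a, Snord13, Snord19 and Snord61. The labels give no extraction, hybridisation or scan batch, so cell type and any difference in handling between LMPPs and CLPs cannot be told apart. In bulk RNA, fewer cells carrying an RNA and less of it per cell cannot be told apart either.

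Scarna2, a C/D-type Cajal body RNA that guides ribose methylation of the U2 spliceosomal RNA, had the largest difference of the family. Its log2 signal was 10.24, 10.25 and 10.60 on the CD127− LMPP arrays and 10.49, 10.50 and 9.91 on the CD127+ LMPP arrays. It was 4.11 and 6.11 on the Ly6D− CLP arrays and 3.59 and 4.82 on the Ly6D+ CLP arrays. The 6 LMPP arrays were bright and close together, and the CLP arrays lay far below them but apart from each other within both CLP groups. The log2 difference of CLPs was -5.65 (SE 0.42, adjusted p = 0.00012) from CD127+ LMPPs and -5.71 (SE 0.42, adjusted p = 2.2e-05) from CD127− LMPPs. Because the Ly6D+ mean of 4.20 lay under the low-signal limit, the folds are given as bounds. With each CLP array raised to at least 4.92 log2, the stricter limit taken from single probe sets of the sensory receptor genes, CLPs were at least 33.9-fold and at least 35.4-fold lower.

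Scarna13, known as U93, is an H/ACA-type Cajal body RNA. It read 9.61, 9.67 and 9.66 in CD127− LMPPs, 9.57, 9.52 and 9.33 in CD127+ LMPPs, 6.12 and 7.17 in Ly6D− CLPs and 6.70 and 6.62 in Ly6D+ CLPs. No CLP array came within 2 log2 units of an LMPP array. CLPs were 7.07-fold lower than CD127+ LMPPs (log2 difference -2.82, SE 0.21, adjusted p = 0.00012) and 7.96-fold lower than CD127− LMPPs (-2.99, SE 0.21, adjusted p = 1.4e-05).

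The other 6 Cajal body RNAs did not follow these 2. Scarna3b was higher in CLPs than in CD127+ LMPPs, with 6.27, 5.95 and 6.18 in CD127+ LMPPs, 6.88 and 6.39 in Ly6D− CLPs and 7.05 and 7.39 in Ly6D+ CLPs (log2 difference 0.80, SE 0.17, adjusted p = 0.024). Its CD127− LMPP arrays read 6.06, 6.52 and 6.47, overlapping the CLPs, and the difference there was 0.58 (SE 0.17, adjusted p = 0.0498). The first call ended without any 1 of the CD127+ LMPP arrays, Ly6D− array 1 or Ly6D+ array 2 (adjusted p of 0.056 to 0.10). The second ended without any 1 array other than Ly6D− array 2 (adjusted p of 0.058 to 0.19). Scarna17 kept a log2 signal of 9.20 to 9.74 on all 10 arrays, with differences of 0.20 and -0.01 (SE 0.14 in both). Scarna6 and Scarna8 differed by 0.31 and 0.21 from CD127+ LMPPs and by 0.10 and -0.18 from CD127− LMPPs, with SE from 0.23 to 0.26, and did not pass. Scarna3a (3.54 to 4.85) and Scarna10, or U85, which carries both kinds of box (1.99 to 4.57), stayed below or near the low-signal limit on every array. A probe set annotated to Scarna3a together with Mir1843b, outside the family, was bright. It read 8.31 to 8.65 in LMPPs and 8.70 to 9.33 in CLPs.

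**Figure D2:**
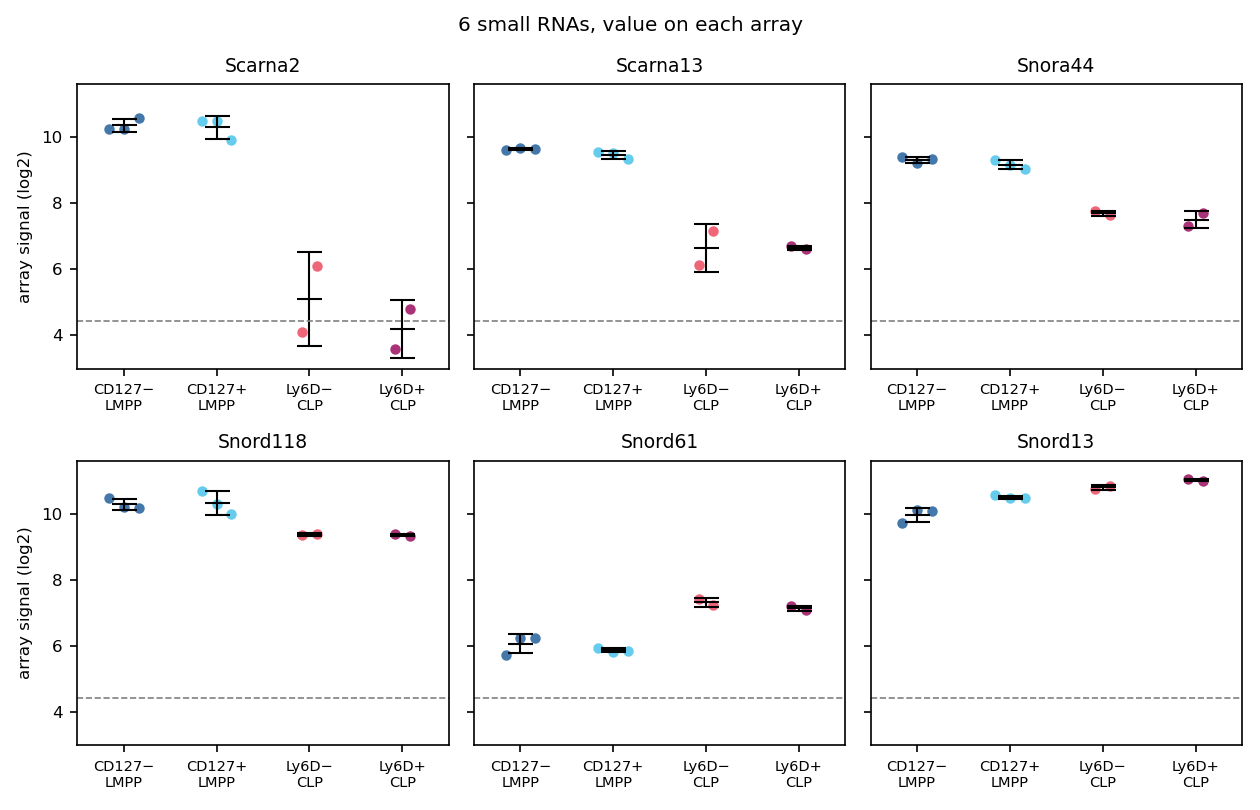
Log2 array signal of 6 small RNAs in each array (points) with the group mean and SD (bars; n = 3, 3, 2 and 2) and the low-signal limit of 4.43 (dashed line). Scarna2, Scarna13, Snora44 and Snord118 are lower on all 4 CLP arrays than on all 6 LMPP arrays, and Snord61 and Snord13 are higher.

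Snora44 had the largest fall among the H/ACA RNAs. It read 9.39, 9.22 and 9.34 in CD127− LMPPs, 9.31, 9.16 and 9.04 in CD127+ LMPPs, 7.76 and 7.65 in Ly6D− CLPs and 7.32 and 7.70 in Ly6D+ CLPs, with a gap of over 1 log2 unit between LMPPs and CLPs. CLPs were 2.96-fold below CD127+ LMPPs (log2 difference -1.57, SE 0.13, adjusted p = 0.00031) and 3.27-fold below CD127− LMPPs (-1.71, SE 0.13, adjusted p = 3.5e-05). Snora68 read 7.16, 7.46 and 7.29, then 6.88, 7.02 and 6.98 in the LMPP groups, and 6.35, 6.19, 5.85 and 6.28 on the CLP arrays. Its differences were -0.79 (SE 0.14, adjusted p = 0.0093) and -1.14 (SE 0.14, adjusted p = 0.00052), with no overlap of arrays.

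Snora73a and Snora73b, the copies of U17, which acts in the cutting of the small-subunit ribosomal RNA rather than as a modification guide, lie in the same host gene, and both were lower in CLPs than in CD127− LMPPs. Snora73b read 7.63 to 7.96 in CD127− LMPPs, 7.46 to 7.71 in CD127+ LMPPs and 6.58 to 7.28 in CLPs, with differences of -0.68 (SE 0.18, adjusted p = 0.051) from CD127+ and -0.94 (SE 0.18, adjusted p = 0.0063) from CD127− LMPPs. Snora73a differed by -0.78 (SE 0.24, adjusted p = 0.080) and -1.002 (SE 0.24, adjusted p = 0.018), and the second call ended without CD127− array 1 or 2 or Ly6D+ array 1 (adjusted p of 0.061 to 0.069). Their sequences are near copies, and how the probes divide between them was not tested.

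Snora78, Snora16a and Snora75 passed against CD127+ LMPPs, at -1.21 (SE 0.27), -1.09 (SE 0.23) and -0.77 (SE 0.18) log2. Snora78 read 7.41, 7.16 and 7.12 in CD127+ LMPPs, 5.08 and 6.51 in Ly6D− CLPs and 6.45 and 6.04 in Ly6D+ CLPs, so its arrays did not overlap but its Ly6D− pair spanned more than 1 log2 unit. Each of these 3 calls ended without any 1 of the CD127+ LMPP arrays or without Ly6D+ array 1. The calls of Snora78 and Snora75 also ended without Ly6D+ array 2, and that of Snora75 without Ly6D− array 2 (adjusted p of 0.051 to 0.11 over these). Snora21 passed against CD127− LMPPs alone (-0.49, SE 0.13, adjusted p = 0.026; -0.16 against CD127+), and its call ended without CD127− array 1 or 3, Ly6D− array 2 or either Ly6D+ array (adjusted p of 0.055 to 0.10). The other bright H/ACA RNAs did not pass. Snora23 read 10.28 to 10.53 in LMPPs and 10.08 to 10.18 in CLPs (differences -0.23 and -0.28, SE 0.12), Snora28 differed by -0.12 and -0.08 (SE 0.14) and Snora31 by -0.01 and 0.12 (SE 0.13).

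Among C/D RNAs, Snord118 or U8, needed for processing of the large-subunit ribosomal RNA, was lower in CLPs. It read 10.47, 10.20 and 10.18 in CD127− LMPPs, 10.70, 10.28 and 9.99 in CD127+ LMPPs, and between 9.34 and 9.40 on all 4 CLP arrays. The CLP arrays were nearly equal and all below the LMPPs. CLPs were 1.94-fold below CD127+ LMPPs (log2 difference -0.96, SE 0.17, adjusted p = 0.0088), and the difference from CD127− LMPPs was -0.91 (SE 0.17, adjusted p = 0.0047).

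Snord61, encoded within Rbmx, the gene of an RNA-binding protein on the X chromosome, rose most. It read 5.73, 6.25 and 6.24 in CD127− LMPPs, 5.93, 5.83 and 5.83 in CD127+ LMPPs, 7.41 and 7.23 in Ly6D− CLPs and 7.20 and 7.09 in Ly6D+ CLPs, with no overlap. CLPs were 2.58-fold above CD127+ LMPPs (log2 difference 1.37, SE 0.15, adjusted p = 0.0010) and 2.23-fold above CD127− LMPPs (1.16, SE 0.15, adjusted p = 0.00063).

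Snord13 or U13, which guides acetylation of small-subunit ribosomal RNA by Nat10, was ordered across the groups: 9.73, 10.10 and 10.09 in CD127− LMPPs, 10.56, 10.48 and 10.47 in CD127+ LMPPs, 10.75 and 10.84 in Ly6D− CLPs and 11.05 and 11.00 in Ly6D+ CLPs. No array of one group overlapped those of the next. The difference of CLPs from CD127− LMPPs passed (0.94, SE 0.13, adjusted p = 0.00092), while the steps between neighbours did not: 0.53 between the LMPP groups (SE 0.14, adjusted p = 0.12), 0.41 from CD127+ LMPPs to CLPs (SE 0.13, adjusted p = 0.088) and 0.22 between the CLP groups (SE 0.17, adjusted p = 0.74).

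The other C/D calls were smaller or less firm. Snord15a, within Rps3, read 5.78 to 6.15 in LMPPs and 4.57 to 5.38 in CLPs. Its differences were -0.94 and -0.99 (SE 0.21, adjusted p = 0.028 and 0.011), and the first call ended without any 1 of the CD127+ LMPP arrays, Ly6D− array 1 or Ly6D+ array 2 (adjusted p of 0.067 to 0.10). Snord1b (-1.01, SE 0.23), Snord99 (-0.85, SE 0.19) and Snord49a (-0.66, SE 0.14) passed against CD127+ LMPPs, and Snord52 (-0.89, SE 0.22), Snord49a (-0.52, SE 0.14) and Snord65 (-0.44, SE 0.13) against CD127− LMPPs. Snord19 rose against CD127+ LMPPs (0.80, SE 0.20, adjusted p = 0.041) and Snord17 against CD127− LMPPs (0.78, SE 0.23, adjusted p = 0.045). Each of these calls ended when 1 array was left out, with adjusted p of up to 0.15. Against CD127+ LMPPs, such arrays were CD127+ array 2 or 3, either Ly6D− array or Ly6D+ array 1 for Snord1b, CD127+ array 2 or 3, Ly6D− array 1 or Ly6D+ array 2 for Snord99, and CD127+ array 1 or 2, Ly6D− array 1 or Ly6D+ array 1 for Snord49a. For Snord19 they were CD127− array 1 or 3, CD127+ array 1 or 2, Ly6D− array 1 or either Ly6D+ array. Against CD127− LMPPs they were CD127− array 1 or 2 or Ly6D+ array 2 for Snord52, CD127− array 2 or 3, Ly6D− array 1 or Ly6D+ array 1 for Snord49a, and any array but CD127− array 2 for Snord65. For Snord17 they were CD127− array 1 or 3, CD127+ array 2 or any CLP array. The brightest C/D RNA, Snord104, differed by -0.06 and 0.10 (SE 0.11), and Snord100 by -0.09 and 0.00 (SE 0.13). Snord116 differed by -0.40 and -0.37 (SE 0.23) and did not pass.

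Across both comparisons with LMPPs, 16 alternative settings were applied to every called RNA. Against CD127+ LMPPs, Scarna2, Scarna13, Snora44, Snora68, Snord118 and Snord61, 6 of the 15 calls, passed under all 16. Against CD127− LMPPs the same was true of 9 of 16 calls, namely those RNAs with Snora73b, Snord13 and Snord15a.

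The host genes were read next, since a small RNA cut from an intron is made from its host's transcript. RefSeq (GRCm38.p6) lists 82 of the 83 RNAs. Of these, 78 lay within the span of a protein-coding or long non-coding gene, and 68 had exactly 1 measured host, 54 hosts in all; strand was not checked. The 4 within no such gene were Scarna2, Snord118, Snord13 and Snord89. Long non-coding hosts, 10 in number, held 16 of the RNAs, of which 6 were lower and 0 higher in CLPs than in CD127+ LMPPs, with a median of -0.67, where the median of their hosts was -0.41. Of the 52 RNAs in 44 protein-coding hosts, 2 were lower and 3 higher, with a median of -0.10, and the median of those hosts was 0.04. Against CD127− LMPPs the non-coding hosts held 7 lower and 0 higher RNAs (median -0.51, hosts -0.42) and the coding hosts 1 lower and 3 higher (median -0.08, hosts -0.07). Over all genes 3.94% were lower and 2.23% higher in the first comparison, and 8.36% and 5.08% in the second. These counts by kind of host were not set against genes of like signal. They also count RNAs of a shared host separately. Snora44, Snora16a and Snord99, lower in the first comparison, all lie in Snhg12. Among those lower in the second, Snora73a shares a host with Snora73b, and Snord49a with Snord65. Over the 68 RNAs, the difference of the RNA and that of its host had a Pearson r of 0.49 against CD127+ LMPPs, 0.53 against CD127− LMPPs, 0.46 between the LMPP groups and 0.12 between the CLP groups; the points share arrays, and RNAs of one host share that host.

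**Figure D3:**
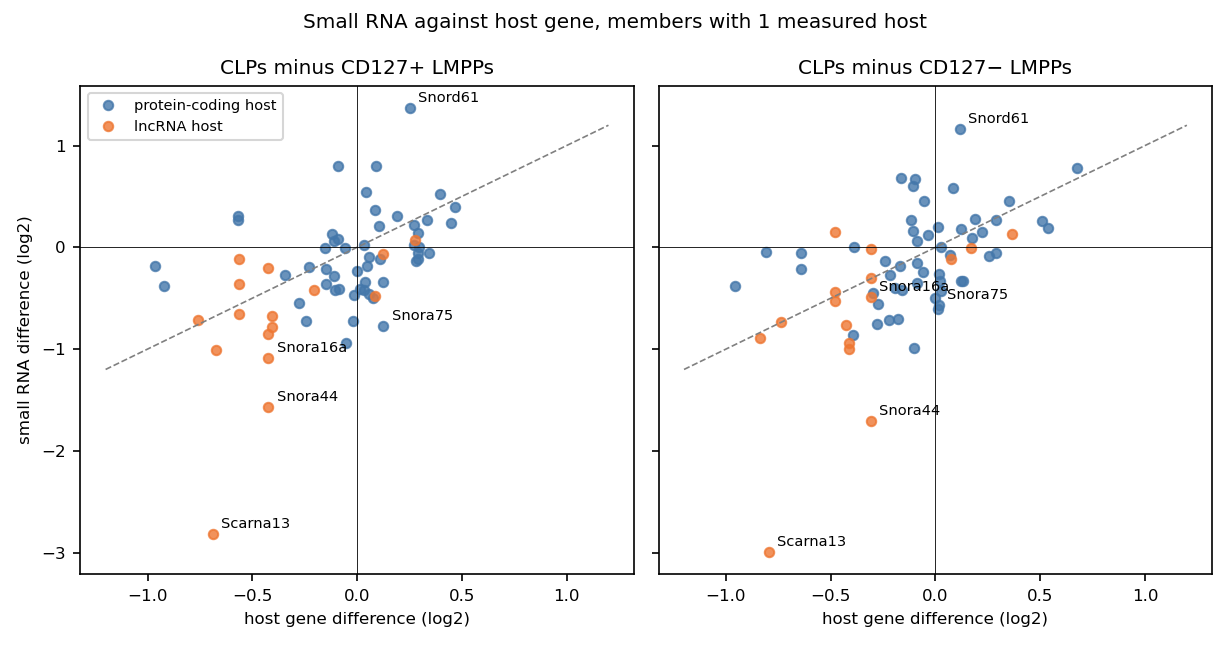
Log2 difference of a small RNA (vertical) against that of its host gene (horizontal) for the 68 RNAs with 1 measured host, in CLPs against CD127+ LMPPs (left) and CD127− LMPPs (right), coloured by kind of host, with a dashed line of equality. RNAs of long non-coding hosts (orange) lie mostly in the lower left, and Scarna13 and Snora44 lie far below the line while Snord61 lies above it.

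Snhg12, a non-coding host, holds 4 of the RNAs and shows how far RNAs of a single host can differ. Snhg12 itself read 10.15 to 10.19 in CD127− LMPPs, 10.18 to 10.41 in CD127+ LMPPs and 9.72 to 9.97 in CLPs, a difference of -0.42 (SE 0.12, adjusted p = 0.063) from CD127+ LMPPs. Against that, Snora44 differed by -1.57, Snora16a by -1.09, Snord99 by -0.85 and Snora61 by -0.20 (SE 0.14, adjusted p = 0.45). Against CD127− LMPPs the values were -0.31 for the host, -1.71 for Snora44, -0.49 for Snora16a, -0.30 for Snord99 and -0.01 for Snora61. Snora16a and Snord99 were higher in CD127+ than in CD127− LMPPs by 0.60 and 0.55 without passing the test (adjusted p = 0.39 and 0.31). The differences between an RNA and its host, or between RNAs of one host, were not tested.

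**Figure D4:**
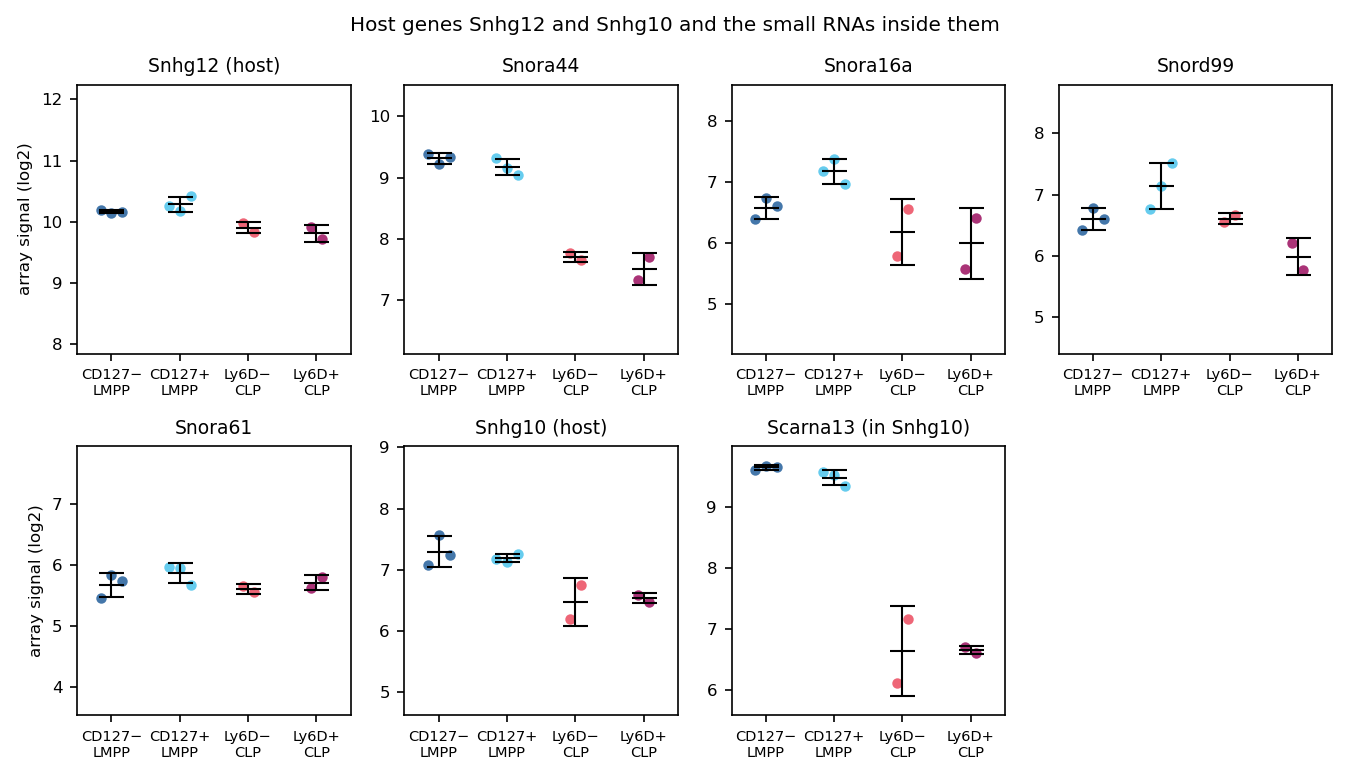
Log2 array signal of the host genes Snhg12 and Snhg10 and of the small RNAs inside them in each array (points), with group mean and SD (bars; n = 3, 3, 2 and 2); each panel spans the same number of log2 units around its own centre. Snora44 and Scarna13 separate LMPPs from CLPs by far more than their hosts do, and Snora61 does not separate them.

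Snhg10, the host of Scarna13, read 7.08 to 7.57 in LMPPs and 6.19 to 6.74 in CLPs. Its differences of -0.69 (SE 0.16, adjusted p = 0.034) and -0.80 (SE 0.16, adjusted p = 0.0090) stood beside -2.82 and -2.99 for Scarna13. Other non-coding hosts that fell against CD127+ LMPPs were 1110038B12Rik, which holds Snord52 (-0.76, adjusted p = 0.0044), Snhg16, which holds Snord1b (-0.67, adjusted p = 0.019), and 2410006H16Rik (-0.56, adjusted p = 0.015). The last holds Snord49a (-0.66), Snord65 (-0.36) and Snord49b (-0.12), of which only Snord49a passed in that comparison. Snhg3, the host of Snora73a and Snora73b, differed by -0.40 and -0.41 and did not pass.

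Protein-coding hosts of called RNAs were read in the same way. Rbmx differed by 0.25 and 0.12 beside 1.37 and 1.16 for Snord61, and Rps3 by -0.05 and -0.10 beside -0.94 and -0.99 for Snord15a. Gnl3, which encodes nucleostemin, differed by -0.09 from CD127+ LMPPs, while its Snord19 differed by 0.80 and its Snord69 by 0.08. Ncl, the gene of nucleolin, differed by 0.12, while its Snora75 differed by -0.77 and its Snord82 by -0.34 (SE 0.24). Dcaf5 differed by 0.09 beside 0.80 for Scarna3b. Snx5, host of Snord17, rose against CD127− LMPPs by 0.68 (SE 0.12, adjusted p = 0.0036) beside 0.78 for Snord17.

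The promoters of Snhg12 and Snhg10 are shown because these hosts carry the RNAs with the largest falls that lie inside a gene. Each window runs from 250 bases before to 50 bases after the annotated start, on the strand of the gene, from RefSeq (GRCm38.p6). The first lies on the plus strand at chr4:132308428-132308727 and the second on the minus strand at chr12:105032230-105032529. Capitals mark the letters TATAA.
Snhg12: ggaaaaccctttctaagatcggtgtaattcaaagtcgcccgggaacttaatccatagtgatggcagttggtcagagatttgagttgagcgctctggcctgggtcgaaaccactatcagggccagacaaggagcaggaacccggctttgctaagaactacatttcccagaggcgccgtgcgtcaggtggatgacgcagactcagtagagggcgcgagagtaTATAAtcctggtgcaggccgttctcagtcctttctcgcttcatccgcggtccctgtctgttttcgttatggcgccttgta
Snhg10: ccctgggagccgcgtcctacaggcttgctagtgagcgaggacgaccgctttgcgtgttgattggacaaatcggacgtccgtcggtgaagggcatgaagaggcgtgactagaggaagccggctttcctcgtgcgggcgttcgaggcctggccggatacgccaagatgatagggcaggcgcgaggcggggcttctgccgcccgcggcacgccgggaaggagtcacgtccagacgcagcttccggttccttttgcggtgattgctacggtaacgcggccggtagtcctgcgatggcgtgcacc
TATAA, searched on both strands, occurs 1 time in the Snhg12 window, starting 30 bases before the annotated start, and not in the Snhg10 window. These letters are in 24.9% of the 32851 windows of the same length. CACGTG, searched on both strands, is in 7.15% of windows and in neither of these.

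Between CD127+ and CD127− LMPPs, 0 of the 83 RNAs passed in limma, against 1.47% of all genes, and 7 had an unadjusted p below 0.05, against 11.1% of all genes. The medians were -0.04 for H/ACA, 0.06 for C/D and -0.19 for Cajal body RNAs. The largest differences were 0.79 for Scarna3a (adjusted p = 0.36), which read 3.92, 3.54 and 4.04 in CD127− and 4.73, 4.62 and 4.53 in CD127+ LMPPs, and -0.71 for Snora36b (adjusted p = 0.37), which lay under the low-signal limit on every array. Snord13 (0.53) had the smallest p and passed under 2 alternatives, a filter on dim genes (adjusted p = 0.043) and limma's trend and robust settings (adjusted p = 0.0025). Scarna2 and Scarna13, which separated CLPs from LMPPs, differed by -0.06 (SE 0.45) and -0.17 (SE 0.22) between the LMPP groups.

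Between Ly6D+ and Ly6D− CLPs, 2 arrays against 2, again 0 of the 83 RNAs passed, against 0.0993% of all genes, and none did under any alternative; 8 had an unadjusted p below 0.05, against 9.1% of all genes. Snora36b differed by 1.57 (adjusted p = 0.17) with 2.17 and 1.18 in Ly6D− and 3.58 and 2.92 in Ly6D+ CLPs, all under the low-signal limit. A probe set annotated to Snora36b together with Mir664 went the other way, with 5.33 and 5.27 in Ly6D− and 2.76 and 4.06 in Ly6D+ CLPs. Scarna2 differed by -0.91 (SE 0.55, adjusted p = 0.67), and its arrays overlapped. Class medians were -0.11, -0.01 and -0.18 for H/ACA, C/D and Cajal body RNAs. In an F test of any difference among the 4 groups, 14 of the 83 RNAs passed, against 9.38% of all genes. That count became 8, 9, 7, 9, 8 and 9 without CD127− array 1, CD127− array 2, CD127+ array 2, CD127+ array 3, Ly6D+ array 1 and Ly6D+ array 2. Over all genes the 2171 calls became 1240, 1481, 1564, 1648, 1199 and 1203 without the same arrays.

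The proteins that work with these RNAs were taken from fixed lists, and none of the genes on them passed between the LMPP groups or between the CLP groups. The counts below stand beside 3.94% of all genes lower against CD127+ and 8.36% against CD127− LMPPs. Most of these genes are brighter than the typical gene, and of the other genes between 6 and 8 log2 8.28% and 18.9% were lower, and of those between 8 and 10 log2 11.4% and 20.03%. Of the 4 core proteins of C/D particles, none passed against CD127+ LMPPs and 2 fell against CD127− LMPPs: Fbl, the methyltransferase fibrillarin (-0.78, SE 0.16, adjusted p = 0.0078), and Nhp2l1, which binds the C/D RNA itself (-0.70, SE 0.18, adjusted p = 0.023). Of the 4 core proteins of H/ACA particles, Nhp2 fell in both comparisons (-0.79, adjusted p = 0.019, and -1.12, adjusted p = 0.0012) and Nop10 against CD127− LMPPs (-0.73, adjusted p = 0.016). Medians of the C/D core were -0.05 and -0.44 and those of the H/ACA core -0.38 and -0.52 against CD127+ and CD127− LMPPs. Of 13 assembly and transport factors, Pih1d1 fell against CD127− LMPPs (-0.43, adjusted p = 0.031). Of 7 measured Cajal body and telomerase proteins, Wrap53, which brings RNAs to the Cajal body, fell in both (-0.63, adjusted p = 0.043, and -0.80, adjusted p = 0.0078).

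Of 16 processing and decay factors, 2 subunits of the RNA exosome, Exosc4 (-1.06) and Exosc5 (-1.04), fell against CD127+ LMPPs. Against CD127− LMPPs, Exosc4 (-1.33), Exosc5 (-1.28) and Exosc1 (-0.59) fell and Papd5, a poly(A) polymerase that marks RNAs for the exosome, rose (0.46, adjusted p = 0.035). Of 26 ribosome biogenesis factors, Imp3 (-0.79, adjusted p = 0.0046) and Nop2 (-0.58, adjusted p = 0.0498) fell against CD127+ LMPPs and 8 fell against CD127− LMPPs, among them Nop2 (-0.86), Imp3 (-0.86), Bop1 (-0.83) and Wdr12 (-0.73). Over all genes 8.36% were lower in that comparison, and 18.9% of other genes between 6 and 8 log2. The list of 14 measured non-coding host genes had 1 lower against CD127+ LMPPs and 3 lower against CD127− LMPPs (Snhg10, Snhg9 and Snhg4). That list does not hold 1110038B12Rik or 2410006H16Rik, and its entry Snhg16 was not matched, because the array names that gene 1810032O08Rik; these 3 hosts, which fell in both comparisons, are therefore outside its count. Of 9 other small RNAs, Terc, the H/ACA-type RNA of telomerase, differed by -1.08 (SE 0.26, adjusted p = 0.033) and -1.27 (SE 0.26, adjusted p = 0.0078), and Vaultrc5, a vault RNA, by -1.32 (SE 0.17, adjusted p = 0.0024) and -1.45 (SE 0.17, adjusted p = 0.00039). Terc read 8.82 to 8.93 in CD127− LMPPs, 8.07 to 9.06 in CD127+ LMPPs and 7.18 to 8.08 in CLPs, so 1 CLP array overlapped. The other 7, which include Rnu3a (U3) and Rn7sk, did not pass.

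Markers of other blood cells differed between the same groups. Of 9 mature granulocyte genes, 5 were higher in CD127+ than CD127− LMPPs and 6 were lower in CLPs than in CD127+ LMPPs. Over all genes, 204 of 23152 were higher in the former and 3.94% lower in the latter. Mmp8 and Cxcr2 went the other way between the LMPP groups (-0.64 and -0.51) without passing. Both were lower in CLPs than in CD127− LMPPs (-1.36 and -0.58), where Ngp was higher (0.96), and all 3 passed. The summed linear signal of the 9 genes was 287 to 1037 in CD127− LMPPs, 2641 to 3831 in CD127+ LMPPs and 399 to 696 in CLPs. For 5 measured erythroid genes the sums were 294 to 331, 584 to 1009 and 145 to 248. Car1 and Car2 were lower in CLPs in both comparisons. Alas2, Epor and Klf1 passed in neither. They differed by -0.01, -0.54 and -0.56 from CD127+ LMPPs and by 0.33, 0.19 and 0.22 from CD127− LMPPs. For 5 macrophage genes the sums were 589 to 751, 338 to 347 and 235 to 366. These were carried by the brightest, Cd68 and Csf1r, which were lower in CD127+ than CD127− LMPPs (-0.96 and -1.89). C1qa, C1qb and Vcam1 went the other way between those groups (0.14, 0.50 and 0.43) without passing. For 5 mature B and plasma cell genes the sums were 311 to 360, 424 to 444 and 448 to 527. The 6 T and NK genes summed to 77.1 to 94.3 on all arrays, and none exceeded the low-signal limit in any group. The part of these markers in the differences of the small RNAs was not tested.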

How the data were processed

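The authors deposited log2 signals made, per the submitters' processing notes, with Affymetrix Power Tools; the log base was read from the values (0.204 to 14.8), and the sources used here give no summary method, normalization or genome build. The table covers 269751 probe sets and 10 arrays. Probe sets carrying 1 gene symbol in the platform annotation (233753) were averaged into 23152 genes, without further normalization. Another 5106 with several symbols and 30892 with none were left out.

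Group means were fitted in limma 3.58.1 (R 4.3.3) over all 10 arrays with its default settings, and Benjamini-Hochberg adjustment ran over all genes at 0.05. The fit was also run on simulated data with independent normal errors. Such data cannot show how it holds for replicate arrays that may be technical or share handling. Errors are limma standard errors (SE). Host genes are RefSeq gene spans that hold an RNA. RNAs were named when they passed with no overlap of arrays (up to 6 per direction), else as the largest difference, and as the 4 brightest of each class and every Cajal body RNA; further called RNAs were named after their values were seen. From 15 fixed lists, up to 4 called genes are named. The family, lists and tests were chosen with earlier results of these data known. Summaries and figures came from matplotlib 3.10.9, numpy 2.4.6 and pandas 2.3.3 under Python 3.11.15. The number of arrays limits the precision.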

Additional observations from a re-analysis of the deposited data

How the results depend on the processing

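The count of called RNAs between the LMPP groups was 0 and became 1 with a filter on dim genes or with limma's trend and robust settings. Leaving out each array gave 0 to 0. Over all genes the 341 calls became 523 with the filter, which kept 13352 genes, and 581 with trend and robust settings. Between the CLP groups the count of called RNAs was 0 throughout. Against CD127+ LMPPs the 15 calls became 7 with the median of probe sets, 27 with trend and robust settings and 5 with Ly6D− CLPs alone, and 6 to 19 when each array was left out. Over all genes the 1430 calls became 641, 2415 and 476 in the same order, and 586 to 1327 when each array was left out. Against CD127− LMPPs the 16 calls became 29 with the filter, 28 with trend and robust settings and 10 with Ly6D− CLPs alone, and 10 to 20 when each array was left out. Over all genes the 3111 calls became 3994, 3939 and 1643 in the same order, and 1763 to 2952 when each array was left out. For any difference among the groups the 14 calls became 7, 22 and 28 with the median of probe sets, the filter and the trend and robust settings, and 7 to 18 when each array was left out. Over all genes the 2171 calls became 1042, 3325 and 3516 in the same order, and 1199 to 2028 when each array was left out. The median of probe sets leaves the values of RNAs with 1 probe set as they are and acts on them through the other genes; over all genes it gave 641 calls against CD127+ LMPPs in place of 1430. With the stricter limit from single sensory probe sets, 72 RNAs in place of 78 exceeded it in at least 1 group. Of 144 recomputed class medians, 1 moved by more than the spread between arrays: the Cajal body median against CD127+ LMPPs turned from 0.17 to -0.09 without Ly6D− array 1. No RNA named by the rule changed direction under these settings.

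Over 13 pairs of arrays with the same number, deviations from group means correlated at -0.04 to 0.13. Both pairs between the CLP groups give the same value (0.03), because each of those groups has 2 arrays. With so few arrays, these values cannot show whether arrays of the same number shared animals or sorts. With the number as a block, the calls against CD127+ LMPPs became 9, those against CD127− LMPPs 18 and those of any difference 12. Over all genes they became 755, 2468 and 1288.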

Other observations

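Probe sets annotated to a small RNA together with another gene lay outside the family: 48, with 33 distinct rows of values. In 9 of these rows all CLP arrays lay below all LMPP arrays, in 5 above, and in 19 they overlapped. Over all genes, 6.96% lay below and 4.82% above. Those shares are of genes rather than of probe sets, and some of the rows carry the same symbols. The row named for Scarna13 and Mir3069 read 4.44 to 5.70 in LMPPs and 3.08 to 3.99 in CLPs. Its CLP values lay under the low-signal limit of 4.43, and its CD127− LMPP mean of 4.84 under the stricter limit of 4.92. The row for Scarna3b and Mir1843 read 7.27 to 7.93 in LMPPs and 8.24 to 8.72 in CLPs. Both rows went in the directions given for those RNAs above. The row for Snora36b and Mir664 read 4.48 to 5.45 in LMPPs and 2.76 to 5.33 in CLPs, and was lower in Ly6D+ than in Ly6D− CLPs, opposite to the probe set named for Snora36b alone. The row for Scarna3a and Mir1843b read 8.31 to 8.65 in LMPPs and 8.70 to 9.33 in CLPs, where the probe set named for Scarna3a alone stayed near the low-signal limit. The row for Snord33 and its host Rpl13a read 8.68 to 9.06 in LMPPs and 6.86 to 7.46 in CLPs, and that for Snora43 and Snhg7 7.14 to 7.50 and 7.83 to 8.19. No test was run on these rows.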
